A study of Homo sapiens with 59 samples.

Results

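The genes followed here encode the protein subunits of the mitochondrial ribosome. They were chosen by symbol alone: the letters MRPL or MRPS, a number and, for a few, a final A, B or C. The rule found 76 of the 19084 gene symbols measured, 47 named MRPL and 29 named MRPS, and used no measured value. By current nomenclature 49 of the encoded proteins sit in the large subunit, among them MRPS30 and MRPS18A despite their names. A further 26 sit in the small subunit, and MRPS36 is now assigned to the 2-oxoglutarate dehydrogenase complex instead of the ribosome. Other mitochondrial ribosomal proteins carry names outside the rule, such as DAP3, and are described apart.

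The mitochondrial ribosome translates the few proteins encoded by mitochondrial DNA, which are core subunits of the respiratory chain and ATP synthase. Its ribosomal RNAs are transcribed inside the organelle, whereas its protein subunits are encoded in the nucleus, made in the cytosol and imported. Many of them descend from bacterial ribosomal proteins, and others were gained in the mitochondrial lineage. Neural stem cells are known for active glycolysis, and mitochondrial content and respiration grow as neurons form.

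The 59 libraries hold messenger RNA of neural stem cells that had been derived from 1 established human embryonic stem cell line, WA09 (H9). All groups had received FGF8b and the ROCK inhibitor Y27632. They were then held in medium with CHIR99021, an inhibitor of GSK3 that activates WNT signalling, and afterwards in retinoic acid medium for 4 days before lysis. The 20 groups differ in the hours of CHIR99021: every 2 h from 2 to 24 h, and 30, 36, 42, 48, 54, 60, 66 and 72 h. There were 3 libraries per time point, labelled A1, A2 and B1, and 2 at 48 h. Longer exposure was also longer culture, all cells came from 1 line, and a group without CHIR99021 was not analysed here. The labels do not call the replicates separate cultures, so a p-value here speaks to the spread among these libraries alone, and that spread may be technical.

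Values are TPM, transcript levels corrected for length and scaled to 1 fixed total per library, which can be compared between genes. Depth is unknown, so no counting interval is given. The number of genes reaching 1 TPM was lowest in 72 h A2 (9348), 4 h B1 (9695) and 42 h B1 (9924), and between 11004 and 13085 in all other libraries. All 9 neural stem cell markers were detected, and VIM, NES, PAX6, SOX3 and MSI1 were above 0 in all 59 libraries. SOX2 had 0 to 74.7 TPM in libraries of 2 to 8 h, 80.4 to 164 TPM in those of 18 to 24 h and 76.3 to 229 TPM in those of 54 to 72 h. Libraries of 2 to 8 h also held epithelial RNA. The 6 epithelial markers summed to between 1039 and 2398 TPM there. At 18 to 24 h the sum lay between 330.5 and 878 TPM, and in the last 4 time points between 296 and 504 TPM. The pluripotent cell list of POU5F1, NANOG, DPPA4 and LIN28A summed to 2778, 3098 and 2736 TPM at 2 h. The neural stem cell list was lower there, at 1404, 1294 and 1276 TPM. At 6 h the pluripotent cell list still summed to 1668, 1778 and 1788 TPM. SOX17 and T were listed at 0 in every library, and SOX10 and FOXD3 in 54 of 59. Their lists were not empty, however. The neural crest list, with TFAP2A, summed to 203, 195 and 205 TPM at 2 h. The endoderm list, with FOXA2, FOXA1 and APOA1, summed to 127, 104 and 96.6 TPM at 6 h. The mesoderm and fibroblast list, with TBX6, MEOX1, COL1A1 and ACTA2, had 40.15, 95.85 and 65.89 TPM at 2 h. In the last 4 time points the 3 tested endoderm and 2 tested neural crest genes were lower than at 2 to 8 h. Of the 4 tested mesoderm and fibroblast genes, 2 were higher and 1 lower, with a median log2 difference of 0.62. Among the 4 pluripotent cell genes 1 was lower and 0 higher, with a median of −0.70.

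Promoter sequence was taken from RefSeq on the GRCh38.p14 build, which is not the build the reads were aligned to, and 67 of the 76 genes were matched. MRPL2, MRPL10, MRPL13, MRPL15, MRPL21, MRPL23, MRPL35, MRPS28 and MRPS36 were not. Of the 8 members that were higher at 30 and 54 h than at the time points around them, 7 were matched. The 4 stretches below are those that hold a searched motif, and were picked for it. MRPL12, MRPL30 and MRPL39 held none in the same stretch and are not shown. They run from 100 bases before the transcription start to 25 bases after it and are written 5′ to 3′ on the gene's strand. Capitals mark an ETS-type CCGGAAGT in MRPL3 and a YY1-type AAGATGGCG in MRPS10 and MRPS30. They also mark CCAAT in MRPS12 and its reverse complement ATTGG in MRPS30.
MRPL3, chr3:131502947-131503071, minus strand: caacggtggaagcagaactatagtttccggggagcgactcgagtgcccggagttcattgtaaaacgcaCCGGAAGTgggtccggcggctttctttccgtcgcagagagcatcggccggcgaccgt
MRPS10, chr6:42217837-42217961, minus strand: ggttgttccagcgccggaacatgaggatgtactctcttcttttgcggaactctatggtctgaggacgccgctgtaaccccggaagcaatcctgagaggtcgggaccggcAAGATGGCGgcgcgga
MRPS30, chr5:44808847-44808971, plus strand: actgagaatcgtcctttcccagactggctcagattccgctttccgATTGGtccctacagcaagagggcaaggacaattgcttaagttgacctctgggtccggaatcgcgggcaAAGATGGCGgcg
MRPS12, chr19:38930844-38930968, plus strand: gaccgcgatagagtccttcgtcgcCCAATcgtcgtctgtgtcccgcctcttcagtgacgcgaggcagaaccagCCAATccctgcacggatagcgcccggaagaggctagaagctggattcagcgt

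In MRPS10 and MRPS30 the YY1-type match begins 10 and 14 bases after the start, and in MRPL3 the ETS-type match begins 32 bases before it. MRPS12 held 4 CCAAT matches in its promoter, at 157, 123, 76 and 27 bases before the start, and only the last pair lies in the stretch shown. Over the full 300 bases, searched on both strands, AAGATGGCG was in 13 of 67 members (19.4%), against 4.13% of the 11105 tested genes with a promoter in the table. Where several promoters were listed for a gene, a match in any of them counted, and the stretches shown are of the first listed. CCGGAAGT was in 17.9% of members and 8.57% of tested genes. For the other motifs the shares were 13.4% and 12.2% for the E-box CACGTG, 34.3% and 43.2% for CCAAT, and 4.48% and 9.29% for TATAAA. The palindromic NRF1 motif was in 1.49% of members and 2.38% of tested genes, and the same motif with 1 free base, which includes it, in 11.9% and 11.6%. These matches describe letters in a window and are not shown to be bound. At the same 30 and 54 h comparison described below, the median log2 difference was 0.55 for the 13 members with AAGATGGCG, 2 of them higher, and 0.32 for the 54 without, 5 of them higher. The same split gave 0.63 and 0.35 for CCGGAAGT, with 1 of 12 and 6 of 55 higher, and 0.55 and 0.37 for CCAAT, with 2 of 23 and 5 of 44 higher. It gave 0.53 and 0.35 for the NRF1 motif with 1 free base, 0.33 and 0.41 for CACGTG, and 0.12 and 0.40 for TATAAA, which only 3 members held. These splits were not tested.

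Many members start next to another gene. In GENCODE release 29, 28 of 76 members (36.8%) had a protein-coding gene starting on the opposite strand within 1000 bases, against 12.9% of 17511 other genes. MRPS12 forms such a pair with SARS2, a mitochondrial seryl-tRNA synthetase, and MRPL10 with LRRC46. In all, 8 members share exon sequence on the same strand with another gene, among them MRPL12, MRPL30 and MRPS6, the last with the myo-inositol transporter SLC5A3, and their reads cannot be fully told apart. Another source of uncertainty is that 33 members have annotated pseudogenes, 70 in all, with 8 for MRPS21.

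Mean TPM over the 59 libraries ran from 12.6 to 453, a 36.0-fold range with a median of 52.3. It was under 50 for 36 members, between 50 and 100 for 29, and 100 or more for 11. MRPS6, a small subunit protein of the bacterial S6 family, was highest at 453 ± 109 TPM (SD over 59 libraries). MRPL3, the homologue of the bacterial protein next to the peptidyl transferase centre, followed at 279 ± 68.2 TPM, and MRPL37, a protein specific to mitochondria, at 249 ± 42.4 TPM. These SDs include changes over the course and are not errors of the means, and the order of MRPL3 and MRPL37 was not tested. MRPS6 alone made up 8.80% of the summed TPM of all members, and the top 3 made up 19.1%. MRPL51, MRPS21 and MRPL20 were next, at 130, 126 and 124 TPM.

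The lowest were MRPS11 at 12.6 ± 8.83 TPM, MRPS25 at 14.0 ± 11.5 TPM, MRPS18C at 18.4 ± 11.1 TPM and MRPL55 at 18.8 ± 14.0 TPM. MRPL22 and MRPL24, both of which line the exit tunnel, were at 19.6 and 21.5 TPM. All 76 passed the filter of 1 TPM in at least 3 libraries, which left 15305 genes. Even so, 40 members were listed at 0 somewhere, in 95 values of which 62 fell in the 3 libraries with the fewest genes. MRPL55 was at 0 in 9 libraries, the most of any member. Spread between replicates followed level: the residual SD on the log2 scale was 0.20 for MRPL3 and 1.83 for MRPL55. It was 0.52 at the median of the 38 higher members and 1.05 for the 38 lower ones.

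Summed over the 76 genes, mitochondrial ribosomal protein mRNA was a small share of all mRNA and moved up and down across the course. From 4984 ± 189 TPM at 2 h the sum reached 6215 ± 238 TPM by 8 h, and the 24 h libraries averaged 4153 ± 104 TPM (SD, n = 3 each). At 30 h it was 5956, 5270 and 5441 TPM in the 3 libraries, and at 54 h 6221, 6139 and 6005 TPM. The 36 h libraries had 4659, 4679 and 4573 TPM, those of 48 h 4717 and 4707 TPM, and those of 60 h 5519, 4531 and 5033 TPM. The 6 libraries of 30 and 54 h overlapped the 11 libraries of 24, 36, 48 and 60 h only through the 60 h A1 library. As the libraries are of bulk RNA, fewer cells of a type and less RNA per cell cannot be told apart.

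A list of 14 genes known to respond to hypoxia, which includes the collagen hydroxylase P4HA1 and the mitophagy receptor BNIP3, ran the other way. Its sum was between 606 and 653 TPM at 30 h and between 775 and 851 TPM at 54 h. In the neighbours it was higher: 1560 to 1664 TPM for 24 h, 2012 to 2017 TPM for 36 h, 1484 to 1701 TPM for 48 h and 2012 to 2999 TPM for 60 h. At 6 and 8 h, where the members' sum was high too, the hypoxia sum was 531 to 570 TPM for 6 h and 532 to 695 TPM for 8 h. CA9, a strong hypoxia marker in many cells, was at 4.22 TPM or less in all windows compared. The part of oxygen supply in the members' levels was not tested.

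**Figure D1:**
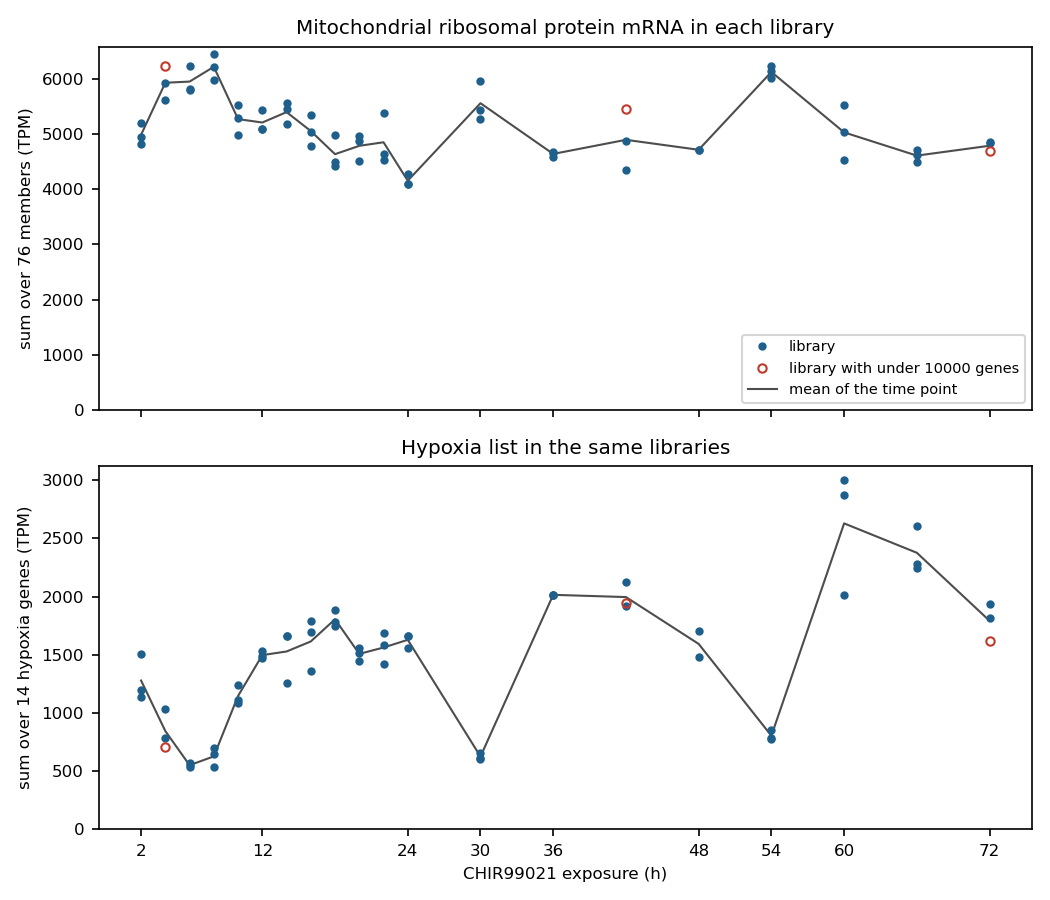
Summed TPM of the 76 mitochondrial ribosomal protein genes (top) and of 14 hypoxia genes (bottom) in each library, against hours of CHIR99021. Points are libraries, open red circles the 3 libraries with under 10000 genes, and lines the time-point means; the top panel is high at 8, 30 and 54 h, where the bottom panel is low.

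Members did not share a single peak. The highest time-point mean fell at 8 h for 18 members, at 54 h for 11, at 4 h for 10, at 42 h for 7 and at 6 h for 6. The lowest fell at 72 h for 15, at 42 h for 11, at 48 h for 10 and at 66 h for 10. The counts at 4, 42 and 72 h rest in part on the libraries with the fewest genes. At 8 h the spread was wide for some members that peaked there, such as MRPL44 (136 ± 75.3 TPM) and MRPS10 (156 ± 64.7 TPM). It was narrow for others, such as MRPL23 (112 ± 8.96 TPM, SD, n = 3 each).

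**Figure D2:**
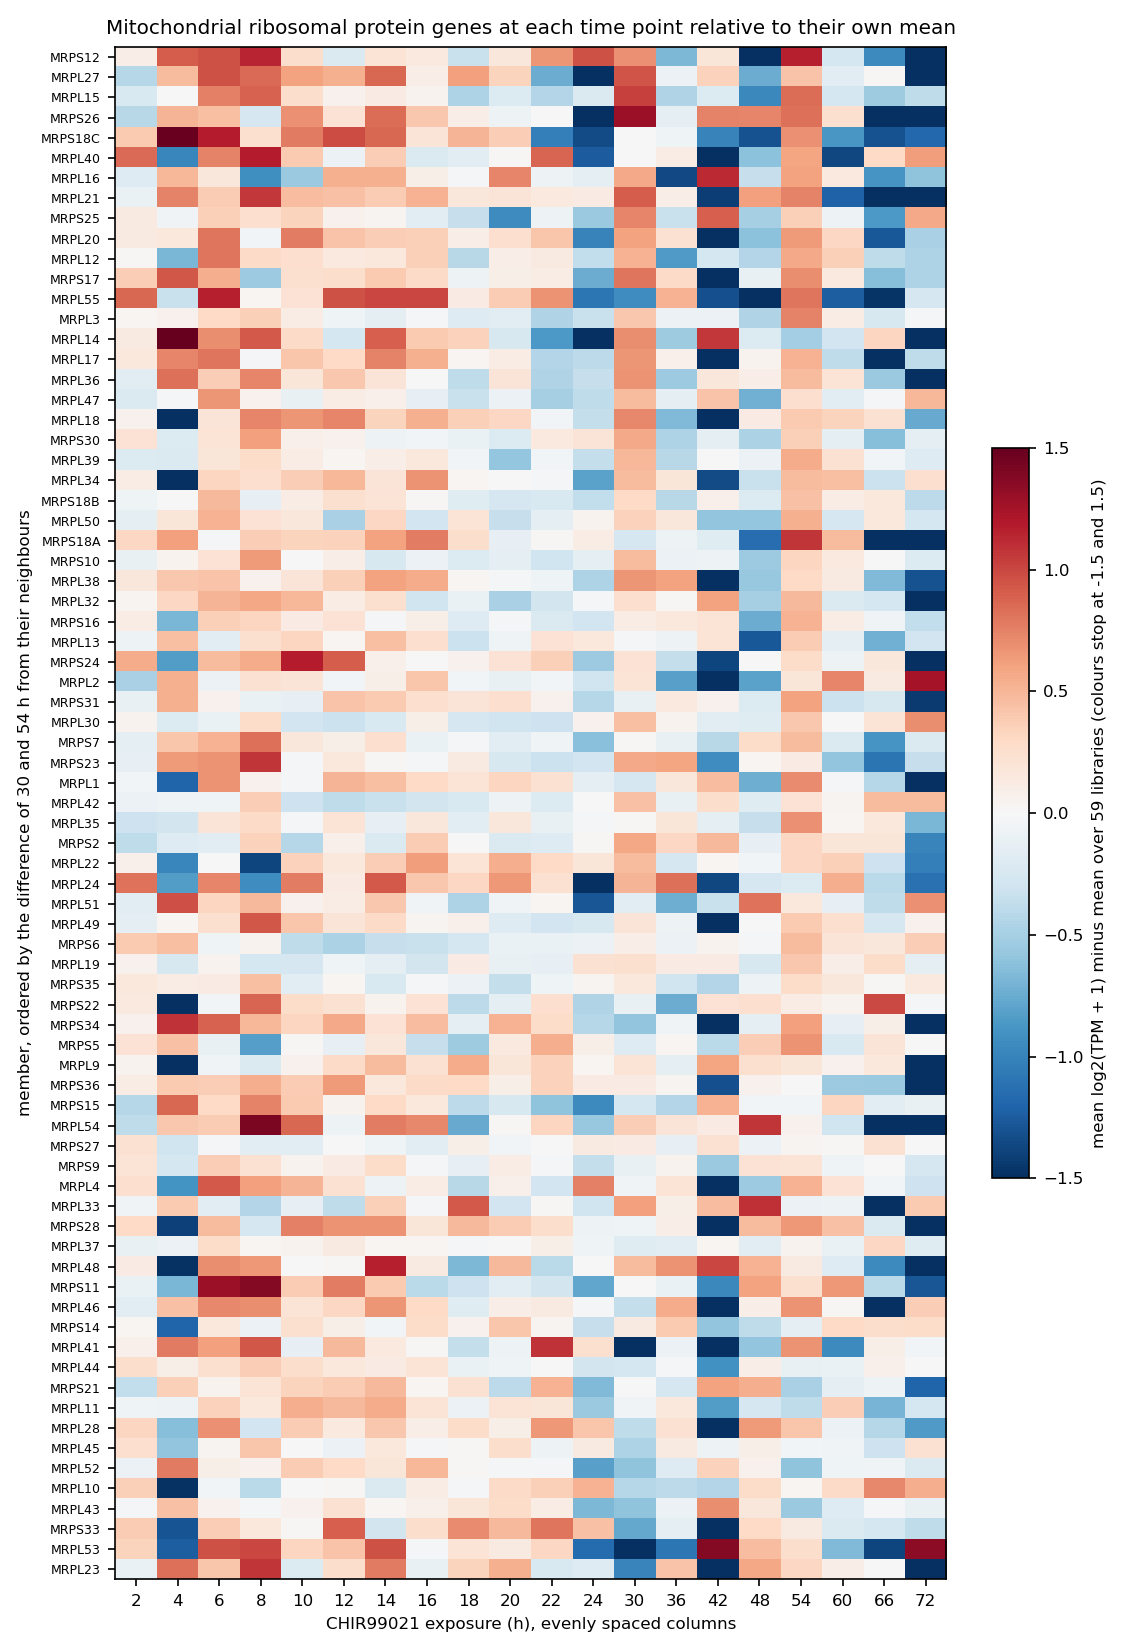
Mean log2(TPM + 1) of each member at each of the 20 time points, relative to its own mean over 59 libraries, red above and blue below, with colours stopping at 1.5 either way. Rows are ordered by the difference of 30 and 54 h from their neighbours; the columns for 6, 8, 30 and 54 h are mostly red in the upper rows, and the columns for 42 and 72 h hold the darkest blues.

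The time points 30 and 54 h were compared with the neighbours 24, 36, 48 and 60 h to test the members one by one at these rises. This comparison was placed where the members' sum in the same libraries was seen to rise. Its p-values are thus not those of a comparison fixed in advance and may be too small. The members' median and their share above 0 depend on that choice too. All genes were not chosen in this way, so these values describe the rise and do not test it. Differences here and below are in log2(TPM + 1), which understates changes of low genes, and were tested with limma with Benjamini-Hochberg adjustment over all 15305 genes. At an adjusted p under 0.05, 8 of 76 members were higher at 30 and 54 h and 0 were lower, against 9.77% higher and 4.53% lower among all genes. The count of higher members is thus near the background. The median over the members was 0.39, against 0.05 over all genes, and 62 of 76 members were above 0, against 54.1% of all genes. At an unadjusted limma p under 0.05 there were 20 members, among them MRPL45, which was lower. The share of all genes at that threshold is not given here, so this count is not read as a result about the members. Scaling the libraries by median ratios gave 4 higher and 1 lower, against 6.85% and 7.36% of all genes, with a median of 0.26. Quantile normalization gave 4 and 1 as well, against 7.70% and 7.45%, with a median of 0.25. The 1 lower member was MRPL45, an exit tunnel protein, at −0.46 and −0.49 after those scalings and −0.33 (adjusted p = 0.188) without; it was named after its values were seen.

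MRPL15, a large subunit protein of the bacterial L15 family, had the smallest adjusted p. It was at 141, 189 and 133 TPM at 30 h and at 136, 141 and 125 TPM at 54 h. The 11 neighbouring libraries were between 34.0 and 77.7 TPM, with a median of 55.9 TPM. Every library of 30 and 54 h was above every neighbour, which held for 3.01% of all genes and for MRPL15 alone among the members. The reverse, every library below, held for 0.810% of all genes and for 0 members. The log2 difference was 1.41 (SE 0.17, limma adjusted p = 4.1e-08).

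MRPL3 was at 352, 305 and 427 TPM at 30 h and at 458, 484 and 428 TPM at 54 h, against 162 to 347 TPM with a median of 243 TPM in the neighbours. The 54 h libraries were above all neighbours and 1 library of 30 h was inside their range. Its log2 difference was 0.76 (SE 0.11, limma adjusted p = 6.2e-07). MRPL15 and MRPL3 passed in all 16 alternatives tried, and the other 6 members did not.

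The stalk protein MRPL12, which recruits translation factors to the ribosome and also binds the mitochondrial RNA polymerase, was at 124 to 168 TPM at 30 h and 143 to 164 TPM at 54 h. Its neighbours ran from 19.4 to 144 TPM with a median of 86.1 TPM, so the groups overlapped (log2 difference 0.87, SE 0.28, limma adjusted p = 0.0285). MRPL11 and MRPL10, which form the base of the stalk, had log2 differences of −0.15 and −0.37 (adjusted p = 0.796 and 0.521). Of the 3 stalk genes, 1 was thus above 0 in this comparison.

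In the large subunit, MRPL39 was at 117, 130.5 and 112 TPM at 30 h and at 118, 122 and 135 TPM at 54 h, with a log2 difference of 0.68 (SE 0.20, limma adjusted p = 0.0129). Its 11 neighbours were at 49.0 to 118 TPM, median 73.0 TPM, and only their highest library reached the range of 30 and 54 h. MRPS30 was at 77.5, 83.8 and 87.2 TPM at 30 h and at 65.7, 84.9 and 64.3 TPM at 54 h, against 29.1 to 100 TPM, median 41.6 TPM (log2 difference 0.69, limma adjusted p = 0.0229). MRPL30 was at 68.1, 96.7 and 69.7 TPM at 30 h and at 80.7, 73.6 and 71.0 TPM at 54 h, against 36.9 to 68.1 TPM, median 58.0 TPM (log2 difference 0.45, limma adjusted p = 0.0115). For MRPL30 the lowest library of 30 h, 68.08 TPM, lay just under the highest neighbour, 68.14 TPM.

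In the small subunit 2 members passed. MRPS12, the homologue of the bacterial S12 protein that monitors decoding, had the largest log2 difference, 1.55 (SE 0.41, limma adjusted p = 0.00687). It was at 46.2, 16.7 and 49.3 TPM at 30 h and at 39.1, 64.9 and 42.6 TPM at 54 h, and its 11 neighbours ran from 0 to 61.0 TPM with a median of 15.0 TPM. The groups overlapped, and the 24 h libraries at 45.1, 24.8 and 61.0 TPM were as high as those of 30 h. Its divergent partner SARS2 had a log2 difference of −0.40 (adjusted p = 0.357). MRPS10, of the small subunit head, was at 146, 125 and 117 TPM at 30 h and at 105, 112 and 133 TPM at 54 h, against 52.0 to 119 TPM, median 88.0 TPM (log2 difference 0.56, limma adjusted p = 0.00557).

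**Figure D3:**
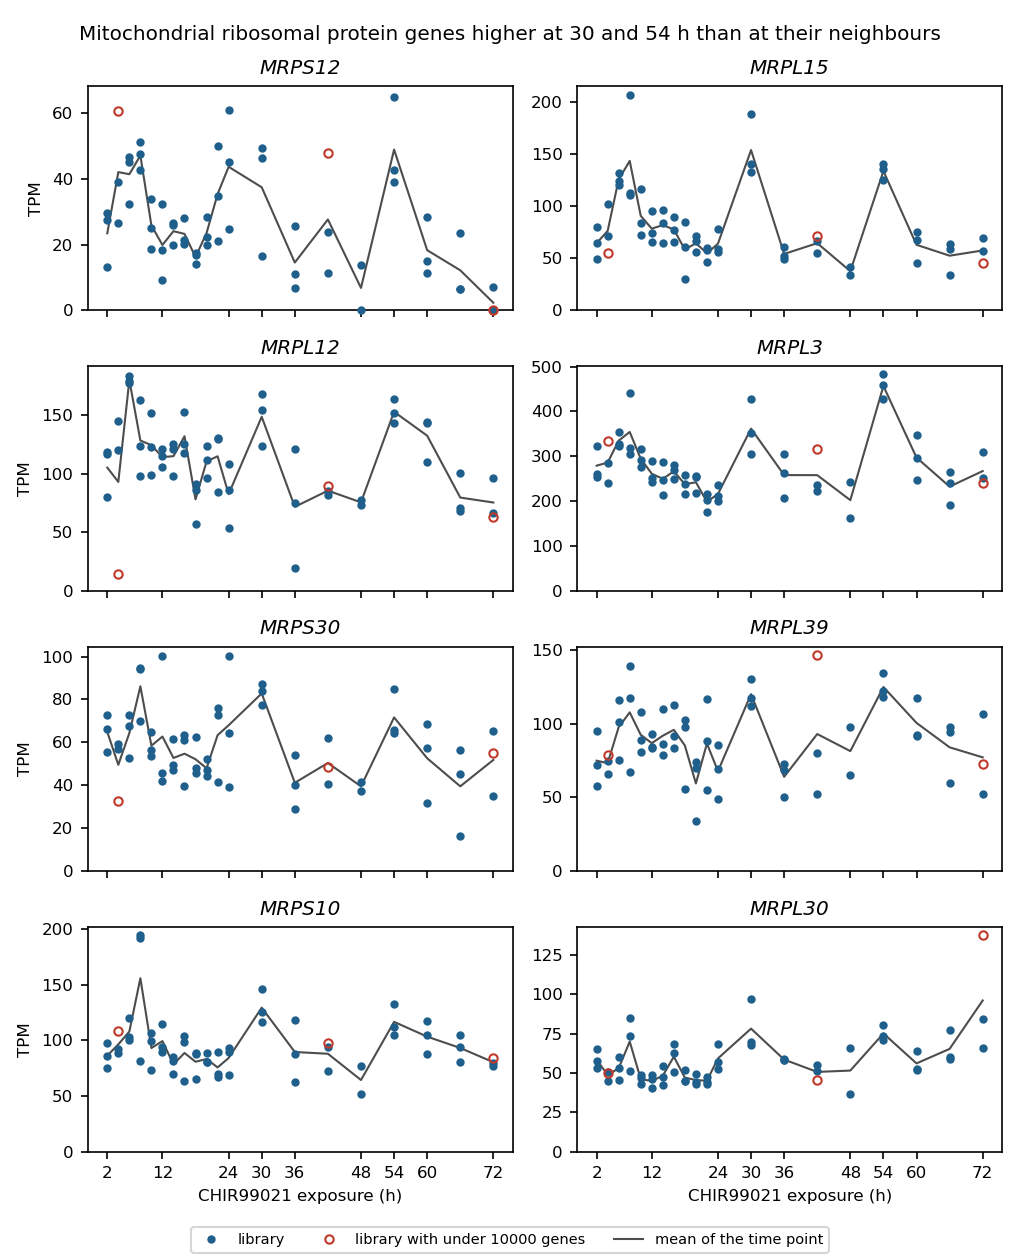
TPM of the 8 members that were higher at 30 and 54 h, in each library against hours of CHIR99021; points are libraries, open red circles the 3 libraries with under 10000 genes, lines time-point means. MRPL15 rises clear of its neighbours at both time points, while MRPS12 is as high at 24 h as at 30 h.

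Taken alone, 30 h against 24 and 36 h gave 4 higher members and 0 lower, against 2.55% and 1.95% of all genes. For 54 h against 48 and 60 h it was 4 and 0, against 6.54% and 1.81%. The effects at 30 h and 54 h differed for 0 members by limma's test of the difference, with 5 at an unadjusted p under 0.05 and a smallest adjusted p of 0.655. That test called only 6 of all 15305 genes, so a count of 0 says nothing about the members. Without the 3 libraries with the fewest genes, none of which belongs to these 6 time points, 19 members were higher and 0 lower, against 16.0% and 8.42% of all genes. Leaving out 42 h B1 alone gave 13, all higher, where 17.2% of all genes were called in either direction. The log2 differences stayed as they were, and only the pooled spread and the number of genes tested changed. The added members, named after their values were seen, included MRPL27 (1.47), MRPS25 (0.92), MRPL20 (0.89) and MRPS17 (0.85).

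By structural group, 6 of 49 large subunit and 2 of 26 small subunit members were higher, with medians of 0.40 and 0.32. The 48 members of bacterial families had a median of 0.49 with 6 higher, and the 27 specific to mitochondria had 0.22 with 2 higher. In the central protuberance, which contacts transfer RNA from above, 6 of 7 members were above 0 with a median of 0.70 and 0 passed. In the exit tunnel group of 6 the median was 0.33 and 0 passed. The 3 paralogs of bacterial S18, which take different places in the ribosome, were at 0.57 for MRPS18A, 0.59 for MRPS18B and 1.24 for MRPS18C, and 0 passed.

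Genes that act with the ribosome were set beside it. Of 19 assembly factors 3 were higher and 0 lower, with a median of 0.50. They were the DEAD-box protein DDX28 (1.59), FASTKD2 (0.93) and the GTPase GTPBP10 (0.92). Of 16 translation factors, the elongation factor GFM1 was higher (1.34) and the elongation factor TUFM lower (−0.51). Of 17 mitochondrial tRNA synthetases, MARS2 was higher (1.803). Among the 7 mitochondrial ribosomal proteins with other names 0 passed and the median was 0.40.

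Genes that copy and transcribe mitochondrial DNA, which gives the ribosomal RNAs of this ribosome, were higher in 5 of 9 cases with 0 lower and a median of 0.70. The packaging factor TFAM was between 231 and 321 TPM at 30 and 54 h and between 95.5 and 162 TPM in the neighbours, without overlap (log2 difference 1.01, limma adjusted p = 1.7e-07). TFB2M (1.28), POLG2 (1.44), SSBP1 (0.89) and the mitochondrial RNA polymerase POLRMT (0.58) were also higher. Of 10 regulators of nuclear genes for mitochondria, 3 were higher, namely the coactivator PPRC1 (1.98), ESRRA (1.69) and MYCN (1.42), and 0 lower. The 10 did not all move alike: 7 were above 0 and 3 below, with a median of 0.35. PPRC1 was between 37.0 and 60.8 TPM at 30 and 54 h, above all neighbours, which were between 6.75 and 25.5 TPM.

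Some other lists moved in the opposite direction, and others showed no clear direction. Of the 14 hypoxia genes 10 were lower and 0 higher at 30 and 54 h, with a median of −1.11. BNIP3 was between 48.3 and 72.6 TPM there and between 278 and 561 TPM in the neighbours. Of 84 tested cytosolic ribosomal protein genes 15 were lower and 1 higher, with a median of −0.28, and 78 were below 0. Of 77 tested nuclear subunits of oxidative phosphorylation, 3 were higher and 1 lower, with a median of 0.02. The 6 epithelial markers summed to 231.5 to 463 TPM at 30 and 54 h and to 249 to 504 TPM in the neighbours, with 0 passing. Of 6 cell cycle genes 3 were lower (median −0.38).

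**Figure D4:**
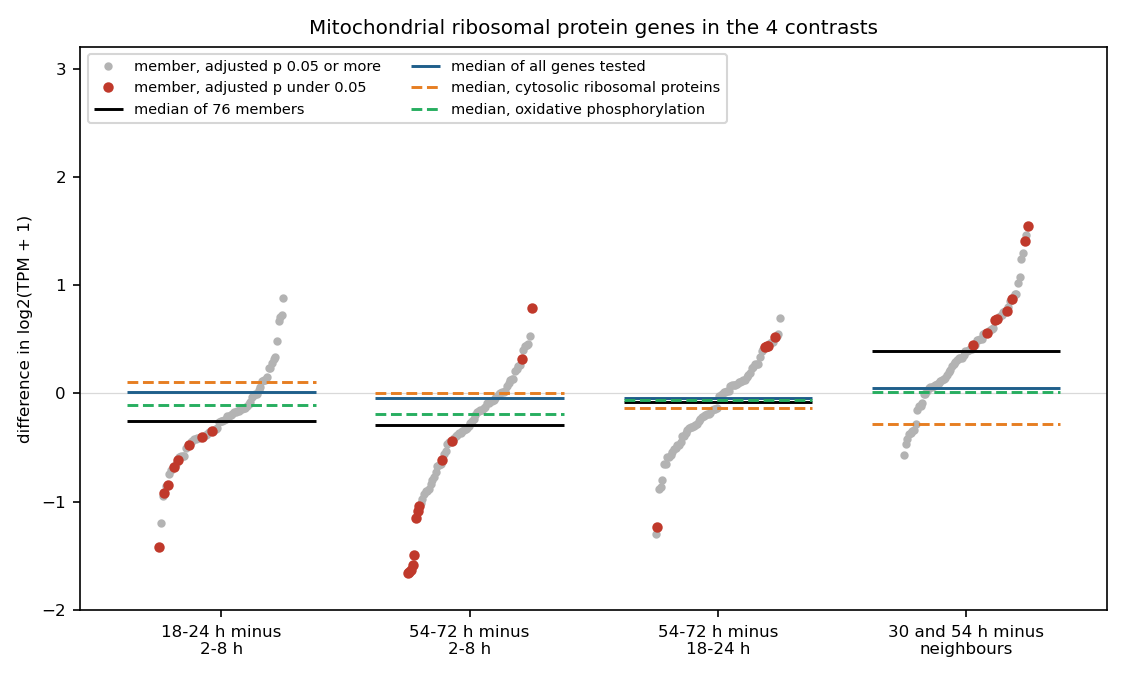
Difference in log2(TPM + 1) of each of the 76 members in the 4 comparisons, sorted within each; red points passed at an adjusted p under 0.05. Lines are medians of the members, of all genes tested, of cytosolic ribosomal protein genes and of oxidative phosphorylation genes. The members' median is lowest of the 4 in the first 2 comparisons and highest, at 0.39, in the last, which was placed where the members' sum rose.

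Over the whole course, 24 of 76 members (31.6%) changed with hours of CHIR99021, against 36.8% of all genes, by limma's F-test on a natural spline with 4 degrees of freedom. The share is near the background. The smallest adjusted p were those of MRPS6 (2.3e-08), MRPL14 and MRPS12 (both 3.8e-04), MRPL54 (6.3e-04), MRPL27 (0.00156), MRPS15 (0.0026), MRPS26 (0.00447) and MRPS18A (0.00514). MRPS6, MRPS12, MRPL14 and MRPL27 passed in all 18 alternatives tried. Without 72 h A2, MRPS26 and MRPS18A no longer passed (adjusted p = 0.0734 and 0.112). The count was 7 without the libraries labelled A2, where 23.9% of all genes were called, and 14 with an F-test over the 20 time-point means, where 35.1% were.

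MRPS6 traced a bowl. It was at 622, 543 and 582 TPM at 2 h and at 470, 606 and 765 TPM at 4 h. By 12 h it was at 336, 299 and 317 TPM, below every library of 2 and 4 h. At 54 h it was back at 727, 546 and 581 TPM, and at 72 h at 706, 415 and 630 TPM. SLC5A3, with which MRPS6 shares exon sequence, had 21.3 to 96.3 TPM in the first 4 time points, 27.4 to 70.8 TPM from 18 to 24 h and 88.6 to 118 TPM from 54 to 72 h. How far shared reads carry between this pair was not tested.

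Early libraries (2, 4, 6 and 8 h) were compared with those of the end of the first day (18, 20, 22 and 24 h), 12 libraries each. At 18 to 24 h 8 members were lower and 0 higher, against 9.45% lower and 10.5% higher among all genes. The share lower is near the background. At an unadjusted limma p under 0.05 there were 18 members, among them MRPL10 (0.67) and MRPL22 (0.88), which were higher. The share of all genes at that threshold is not given here, so the 18 are not read as a result about the members. The members' median was −0.25, against 0.01 for all genes, and 60 of 76 were below 0, against 48.8% of all genes. Without the 3 libraries with the fewest genes 20 were lower and 0 higher, against 14.6% and 13.0% of all genes, with a median of −0.36.

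The largest difference was that of MRPL14, of the bacterial L14 family, which lies at the face between the subunits. It went from between 25.7 and 172 TPM (median 46.0) at 2 to 8 h to between 6.58 and 39.6 TPM (median 18.1) at 18 to 24 h. It fell by 1.42 (SE 0.32, limma adjusted p = 7.4e-04), and the ranges overlapped. At 24 h the 3 libraries were at 7.65, 6.58 and 10.97 TPM.

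MRPS15, which binds the small ribosomal RNA, had 72.6 to 554 TPM early (median 120) and 40.0 to 119 TPM after (median 79.2), and fell by 0.92 (limma adjusted p = 0.00231). MRPL51, specific to mitochondria, had 81.9 to 431 TPM early and 16.4 to 192 TPM after, and fell by 0.85 (adjusted p = 0.00568). MRPL15 fell by 0.68 (adjusted p = 2.1e-04), from a median of 107 to a median of 59.4 TPM. MRPS7, of the small subunit head, fell by 0.61, MRPL3 by 0.48, MRPS10 by 0.40 and MRPS6 by 0.34. In each of these the 2 groups of libraries overlapped in range.

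In the same comparison the 9 genes for mitochondrial DNA and transcription had 4 lower and 0 higher, with a median of −0.53. Assembly factors had 1 lower of 19, and translation factors 2 of 16. Cytosolic ribosomal protein genes had 13 higher and 1 lower of 84, with a median of 0.10. Hypoxia genes had 7 higher and 0 lower of 14, and all 6 epithelial markers were lower. The part of epithelial RNA in the early libraries in these differences was not tested.

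The late window (54, 60, 66 and 72 h) was compared with the early one to ask how the longest exposures differed from the shortest. It shares its early libraries with the comparison above. Late, 10 members were lower and 2 higher, against 15.8% lower and 14.3% higher among all genes, so both counts are near or under the background. The median was −0.29, against −0.04 for all genes, and 56 of 76 were below 0, against 53.2% of all genes. The 10 that fell had log2 differences from −1.66 to −0.44. Without the 3 libraries with the fewest genes 16 were lower and 3 higher, against 19.0% and 17.8% of all genes.

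MRPS12 was between 13.1 and 60.6 TPM early, median 40.8 TPM, and between 0 and 64.9 TPM late, median 13.2 TPM. It fell by 1.65 (SE 0.33, limma adjusted p = 9.5e-05). Its high late values were those of 54 h, and at 72 h it was at 6.97 TPM in A1 and listed at 0 in A2 and B1. MRPL14 fell by 1.63 (SE 0.32, adjusted p = 6.0e-05), to a late median of 25.5 TPM. At 72 h it was at 11.2, 0 and 4.89 TPM. MRPL54, specific to mitochondria, fell by 1.58 (SE 0.46, adjusted p = 0.00676), from a median of 46.8 to 17.1 TPM, or by 1.04 without the 3 libraries with the fewest genes.

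MRPS23, a small subunit protein specific to mitochondria, was between 24.98 and 156 TPM early and between 6.56 and 54.0 TPM late, and fell by 1.04 (limma adjusted p = 0.00512). MRPL21 fell by 1.66, MRPS18C by 1.49, MRPL27 by 1.15 and MRPS34 by 1.08, with adjusted p of 0.0254, 0.0368, 0.0309 and 0.0498. Without 72 h A2 these 4 did not pass, with differences of −1.26, −1.16, −0.93 and −0.66 and adjusted p of 0.0758, 0.0978, 0.0792 and 0.161, and without 4 h B1 MRPS34 did not (−1.03, adjusted p = 0.0738). With 72 h A2, 4 h B1 and 42 h B1 all left out, MRPL21 (−1.33, adjusted p = 0.0306) and MRPS34 (−0.61, adjusted p = 0.00448) passed, and MRPS18C (−1.16, adjusted p = 0.073) and MRPL27 (−0.97, adjusted p = 0.0598) did not.

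Only MRPL10 and MRPL30 were higher late. MRPL10, of the stalk base, was between 2.30 and 90.4 TPM early, median 60.5 TPM, and between 49.7 and 131 TPM late, median 87.1 TPM (log2 difference 0.79, SE 0.25, limma adjusted p = 0.0149). The lowest early value was in 4 h B1, and without that library the difference was 0.43 (adjusted p = 0.0174). MRPL30 was between 45.1 and 84.8 TPM early and between 51.7 and 138 TPM late (log2 difference 0.32, SE 0.10, adjusted p = 0.0141). MRPL12 and MRPL11, the other stalk members, had differences of −0.09 and −0.34 (adjusted p = 0.818 and 0.258).

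**Figure D5:**
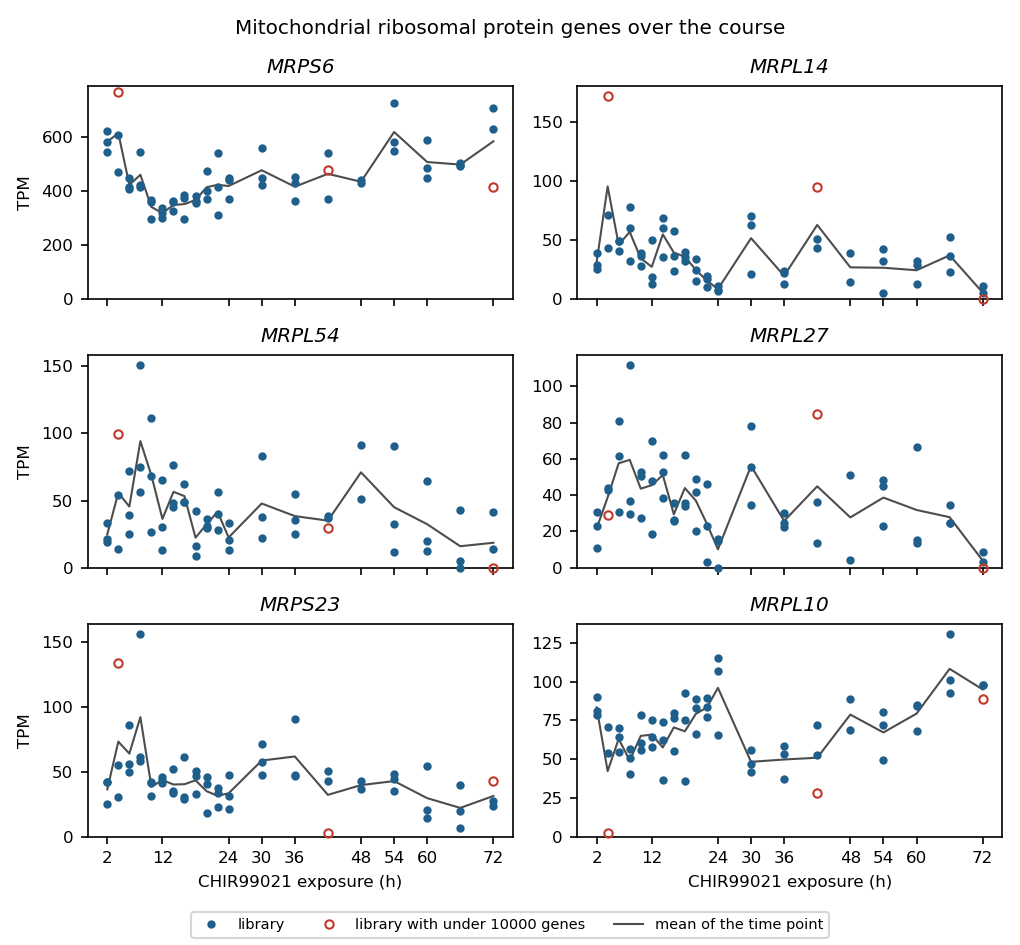
TPM of 6 members in each library against hours of CHIR99021; points are libraries, open red circles the 3 libraries with under 10000 genes, lines time-point means. MRPS6 is lowest around 12 h, MRPL14 reaches its lowest levels at 24 and 72 h, and MRPL10 is highest at 66 h.

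In the late window 6 of 19 assembly factors were lower and 0 higher, among them MTERFD2 (−1.70), MPV17L2 (−1.65), DDX28 (−1.14) and the methyltransferase FTSJ2 (−1.03). Translation factors had 3 lower of 16: TACO1 (−0.88), SLIRP (−0.75) and GFM1 (−0.45). The mitochondrial DNA and transcription list had 5 lower of 9, with TFB2M (−1.31) and the helicase C10orf2 (−1.27) the lowest. Among members with other names, CHCHD1 (−1.26) and GADD45GIP1 (−1.42) were lower. Oxidative phosphorylation had 9 lower and 2 higher of 77, with a median of −0.19, and cytosolic ribosomal proteins 7 lower and 7 higher of 84, with a median of 0.00. Over the same windows 6 of 6 cell cycle and 7 of 8 neuron markers were higher, and 9 of 14 hypoxia genes. The part of these changes in cell make-up in the members' values was not tested.

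Late libraries set against those of the end of the first day gave 4 higher members and 1 lower, against 5.43% and 7.08% of all genes, and the late libraries are those of the comparison above. The higher ones were MRPL30 (0.53, limma adjusted p = 1.5e-04), MRPS6 (0.44, adjusted p = 2.8e-04), MRPL3 (0.44, adjusted p = 1.8e-04) and MRPL42 (0.43, adjusted p = 0.0147). MRPL30 went from between 43.0 and 68.1 TPM to between 51.7 and 138 TPM, and MRPS6 from between 311 and 541 TPM to between 415 and 727 TPM. MRPS12 was the 1 lower (−1.23, adjusted p = 0.0074). The median over the members was −0.08, against −0.04 for all genes, and it was 0.04 without 72 h A2, so no direction is given for the group. SLC5A3, the partner of MRPS6, was higher by 0.87 (adjusted p = 1.9e-07).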

How the data were processed

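The deposited values are TPM per gene symbol in 59 libraries; per the submitters' processing notes, the authors used CASAVA 1.8.2, Bowtie 0.12.8 and RSEM 1.2.3 with hg19, and the annotation and counting strand are not given in the sources used here. RSEM apportions reads shared by paralogs, overlapping genes and pseudogenes, so such values are uncertain. No 2 libraries were identical (highest r 0.971).

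Groups and replicate labels came from the labels. The log2 of TPM + 1 was fitted with limma 3.58.1 under R 4.3.3 (intensity trend, Benjamini-Hochberg, threshold 0.05) for the 15305 genes with at least 1 TPM in at least 3 libraries. All 59 libraries entered each fit, so the 2 libraries of 48 h are assumed to vary like the rest. Levels are TPM, medians or means ± SD. The code was tested on simulated data. Figures used matplotlib 3.10.9 in Python 3.11.15.

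Members and gene lists were chosen with earlier results of these data known. Named were the 6 highest and 6 lowest members, the 8 smallest p for the course, up to 8 called members in each direction per comparison, members of structural groups, and up to 4 genes per list. Alternatives varied the pseudocount, filter, scaling, replicate block, spline and time points, and left out libraries. Leaving out 4 h B1, 42 h B1 or 72 h A2 alone was chosen after seeing the data. No values of single reads or isoforms were used. The late minus early result of the mitochondrial tRNA synthetases is not reported here.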

Additional observations from a re-analysis of the deposited data

How the results depend on the processing

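Alternatives gave 663 values for the named members, of which 542 kept their direction and call, 111 kept direction only and 10 reversed. With all libraries of 1 replicate label left out, counts ranged from 7 to 28 for the course (24), 5 to 16 for late minus early (12), 7 to 10 for first day minus early (8), 3 to 4 for late minus first day (5) and 4 to 8 for 30 and 54 h (8). All genes called ranged from 21.6% to 35.4%, 19.8% to 28.3%, 10.7% to 16.1%, 6.08% to 11.7% and 5.08% to 12.2%. Without the 3 libraries with the fewest genes, 19 members differed late minus early (3 higher, 16 lower), 20 first day minus early and 19 at 30 and 54 h, or 13 without 42 h B1 alone; all genes called were 36.8%, 27.6%, 24.5% and 17.2%. An F-test over the 20 time-point means gave 14 for the course, against 35.1% of all genes. Median-ratio scaling and quantile normalization each gave 5 at 30 and 54 h, and 30 h and 54 h alone gave 4 each. Single time points gave 7 for 72 h minus 2 h, 3 for 72 h minus 24 h, and 0 for 54 h minus 6 h, 24 h minus 2 h, 30 h minus 6 h and 54 h minus 30 h, where limma's unadjusted p was under 0.05 for 4, 8, 3 and 6 members. All genes called in these 6 were 19.0%, 9.14%, 6.95%, 5.34%, 3.88% and 1.19%. The counts of 0, and those at an unadjusted p, are therefore not read as a result about the members. The cause of these changes was not tested.

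Reversed at 54 h minus 6 h were MRPL21 (0.36) and MRPS12 (0.22). MRPL15 reversed at 24 h minus 2 h (0.0019) and at 30 h minus 6 h (0.27), where MRPL3 (0.098), MRPS10 (0.26) and MRPS6 (0.16) did too. At 54 h minus 30 h MRPL30 was −0.041, MRPL42 −0.22 and MRPS12 0.48. The median for late minus first day ranged from −0.141 to 0.0985 with 1 replicate label left out, the highest without the A2 libraries, and was 0.0374 without the 3 libraries or without 72 h A2 alone, and 0.0879 for 54 h minus 30 h. The cause was not tested.

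Libraries of different time points with the same full label (A1, A2 or B1) did not deviate together: 6 of 513 pairs had r over 0.1, with a median of 0.0045. Whether libraries that share only a letter, such as A1 and A2, came from the same culture was not tested. With a replicate block the counts were 24, 12, 8, 5 and 8, and MRPS34 no longer passed late minus early. TPM keep no depth, and low members had wide spread, so a difference that did not pass is not shown to be absent.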
